A study of Triticum aestivum with 12 samples.

Results

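The genes described here are the serine endopeptidase inhibitors of the wheat grain, taken as the protein-coding genes whose gene ontology annotation in the authors' deposited table holds the term for serine-type endopeptidase inhibitor activity. They numbered 101 of the 12357 protein-coding genes and 25269 genes of that table, with 29 on chromosome 1A, 46 on 1B and 26 on 1D. The table used here holds coding genes of these 3 chromosomes alone and ends in an incomplete line, so it may be cut short, and the number of members and the shares given for all genes hold for this table. RNA had been sequenced from whole immature grain of bread wheat (Triticum aestivum) in 12 libraries, 3 for each of 4 groups. HP30 was grain of Mutant-HPm512 sampled 30 days after anthesis, when the flower opens, and WT30 was grain of Wild type-Zhoumai22 at 30 days. HP20 and WT20 were grain of the same mutant and wild type at 20 days. The labels give the mutant a phenotype of high antioxidant activity, and its altered gene is not named there. The comparisons ask which of these transcripts differ between the cultivars at each age, and between the ages in each cultivar. No label says that replicates came from separate plants. The p-values set differences between groups against the spread among replicate libraries, and that spread may be technical.

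Serine proteases cut proteins with an active-site serine, and their protein inhibitors usually block them by presenting a substrate-like loop that stays bound. Cereal grains hold several families of such inhibitors, among them the Bowman-Birk inhibitors, small secreted proteins held together by disulfide bonds, and the potato inhibitor I family, whose members are short, often lack disulfide bonds and in many plants respond to wounding. They are known as part of grain defence against insects and microbes, and some are stored in endosperm or embryo. The Wali genes are named for wheat roots exposed to aluminium, where they were found, and several of them encode Bowman-Birk-like proteins.

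A second annotation term split the members into classes. Of the 101 members, 63 also carried the term for response to wounding, 33 the term for the extracellular region and 1 both terms. A further 2, both described as Globulin 1, a seed storage globulin, carried the term for IgE binding, and 2 carried the term for response to oxidative stress. The table described 7 members by name, with Wali3, Wali5, Wali6 and 2 Bowman-Birk trypsin inhibitor-like proteins in the extracellular class and the 2 Globulin 1 genes. No member of the wounding class had a description, so it is called by its term here.

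Most of the members had no detected transcript in the grain. In all 12 libraries 61 of 101 had no read (60.4%), against 27% of all coding genes of the 3 chromosomes. The members were also shorter, with a median span of 380 bp against 2412 bp for all coding genes. The part of length in this difference was not tested. A library's limit for a gene with no read, 3 counts, was 0.0408 to 0.0506 RPM (reads per 1 M reads), and that limit covers counting error only. Another 14 members had reads in at least 1 library but stayed low, with 3 to 207 reads over all 12 libraries and at most 0.527 FPKM (fragments per kilobase of gene and per 1 M reads) as a group mean. The other 26 (25.7%) reached 1 FPKM in at least 3 libraries and were tested, against 40.8% of coding genes.

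The members without reads lay mainly in the wounding class and on 1B. Of 30 wounding genes on 1B 2 were tested and 27 had no read, whereas 3 of 19 on 1A and 5 of 14 on 1D were tested. The extracellular class differed less between chromosomes, with 4 of 9 tested on 1A, 4 of 13 on 1B and 4 of 11 on 1D.

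**Figure D1:**
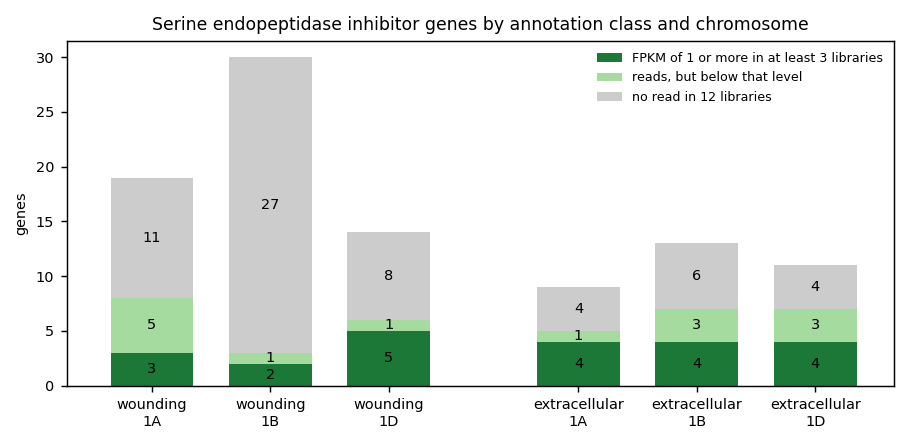
Number of genes (y axis) of the wounding and extracellular classes on chromosomes 1A, 1B and 1D, split into tested genes, genes with reads below that level and genes with no read in 12 libraries. The 1B wounding bar is the tallest, with 30 genes, and 27 of them had no read; the 5 genes of other classes are not drawn.

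Members sat in tight clusters. Taking runs with gaps of at most 500 kb between neighbours, 13 clusters held 92 of the 101 members (18 clusters and 89 members at 200 kb, 9 clusters and 93 members at 1000 kb). Near the start of each chromosome lay a stretch rich in members, at 10.1 to 22.7 Mb on 1A (20 members), at 12.3 to 23.8 Mb on 1B (35 members) and at 8.8 to 11.2 Mb on 1D (18 members). Coordinates are those of the table, and the sources used here do not name their genome build. Of these members 3, 3 and 5 were tested on 1A, 1B and 1D.

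The largest cluster had no reads at all. It held 19 members on 1B between 12343414 and 13678139, 14 of the wounding and 5 of the extracellular class, and 0 of them had a read in any library. Its members included TraesCS1B02G025900, a described Bowman-Birk trypsin inhibitor-like protein. The second described gene of that name, TraesCS1D02G022000 on 1D, had reads in 5 libraries of 20-day grain, 23, 19 and 15 in HP20 and 0, 16 and 8 in WT20, and 0 in all 6 libraries of 30-day grain. Genes that are not members were also quiet in the 1B stretch: 98 of 150 such coding genes had no read there and 11 were tested, against 61 tested of 185 in the 1A stretch and 17 of 62 in the 1D stretch.

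A second set of 3 clusters lay on the long arms and held most of the extracellular expression. They spanned 460967358 to 461373455 on 1A with 6 members, 483866397 to 484377037 on 1B with 8, and 361205246 to 361915200 on 1D with 7. All 21 members were of the extracellular class and all lay on the plus strand. They held all 12 tested genes of the class, 4 in each cluster, and in each cluster these were the last 4 in chromosome order. The members before them had 0 to 207 reads over the 12 libraries. The summed level of the 1A cluster was 663 ± 78.8 FPKM in HP30 and 642 ± 16.7 in WT30, and 144 ± 64.5 in HP20 and 172 ± 23.8 in WT20 (SD, n = 3, here and below). On 1B the sums were 309.5 ± 31.4 FPKM in HP30, 269 ± 6.27 in WT30, 105 ± 56.3 in HP20 and 100.2 ± 11.98 in WT20, and on 1D they were 542 ± 56.9 in HP30, 458.5 ± 8.86 in WT30, 347 ± 90.5 in HP20 and 328 ± 32.1 in WT20.

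**Figure D2:**
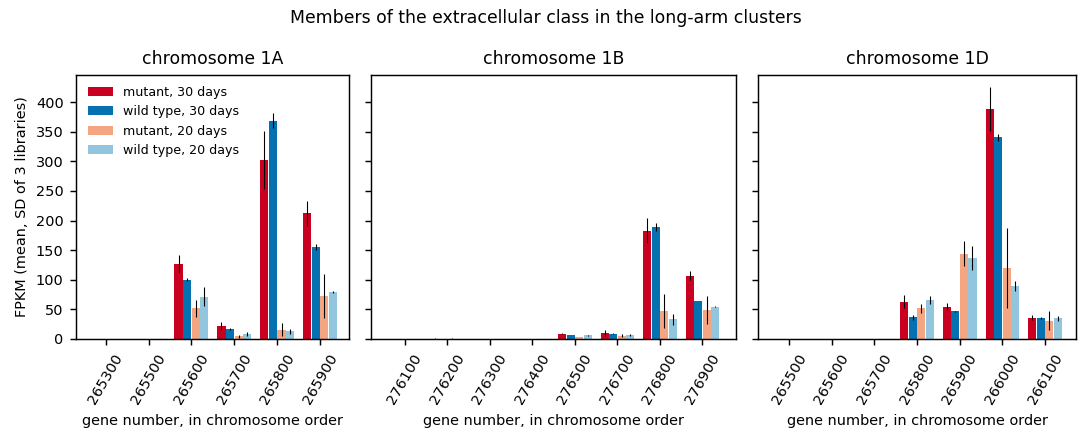
Mean FPKM (y axis) of each member of the 3 long-arm clusters in chromosome order (x axis, the digits that end its identifier), with bars for HP30, WT30, HP20 and WT20 and error bars of 1 SD over 3 libraries. The next-to-last gene has the tallest HP30 bar of its cluster on each chromosome, at 302 FPKM on 1A, 183 on 1B and 388 on 1D.

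As a share of all reads the members together took 0.221% ± 0.0257 in HP30 and 0.123% ± 0.00358 in WT30, and 0.142% ± 0.00940 in HP20 and 0.222% ± 0.00337 in WT20. The Globulin 1 pair made up 47.7% of the members' summed FPKM in HP30, 65.5% in HP20 and 73.1% in WT20. In WT30 the members summed to 1939 FPKM with the pair and to 1516 FPKM without it. Without the pair the members took 1094 ± 115 RPM in HP30, 942.5 ± 22.8 in WT30, 403 ± 139 in HP20 and 456 ± 27.5 in WT20. In wild type their share was then higher at 30 than at 20 days, in place of lower. Library totals were 59.3 M to 73.6 M reads, of which the table held 9244968 to 15187939. Counts of replicates varied beyond sampling noise (chi-square of 9.43 to 158 per degree of freedom).

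HP20 replicate 3 stood apart from its group. Its extracellular genes summed to 353 FPKM, against 716 and 721 in HP20 replicates 1 and 2 and 542 to 673 in WT20. Its 6 embryo marker genes, agglutinins and Em proteins, summed to 26.4 FPKM, against 136 and 109 in replicates 1 and 2. Its endosperm markers, storage protein and thionin genes, went the other way, at 39610 FPKM against 29130 and 21490. So did its green pericarp markers, at 8.11 FPKM against 4.02 and 5.80. The part of tissue content in these values was not tested. Without this library the summed FPKM of the 3 long-arm clusters averaged 181 on 1A, 138 on 1B and 399 on 1D in HP20, against 172, 100.2 and 328 in WT20, so that the mutant mean on 1A lay above the wild-type one in place of below it. The share of Globulin 1 in the members' FPKM was then 59.3%, and the members took 0.137% of all reads. These values without the library were added after the data were seen, and group means of HP20 elsewhere include it unless stated.

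Marker genes of grain tissues moved with cultivar and age. The 13 storage protein and thionin genes listed for the starchy endosperm leave out the Globulin 1 pair. They summed to 32800 ± 3292 FPKM in HP30 and 5971 ± 59.8 in WT30, and to 30080 ± 9097 in HP20 and 45820 ± 481 in WT20. The 6 embryo genes summed to 1788 ± 652 FPKM in HP30 and 2886 ± 91.7 in WT30, and to 90.3 ± 57.0 in HP20 and 66.2 ± 13.2 in WT20. The 11 green pericarp genes, chlorophyll a-b binding proteins of which 2 had no read, summed to 1.13 ± 0.488, 0.210 ± 0.183, 5.98 ± 2.05 and 10.3 ± 1.46 FPKM in HP30, WT30, HP20 and WT20. In whole grain, fewer cells of a type and less RNA per cell cannot be told apart.

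The highest group mean of a tested member ranged from 1.51 FPKM, in TraesCS1A02G028300, to 1482 FPKM, in Globulin 1 on 1D. Globulin 1 on 1D was first in HP30, HP20 and WT20, at 869.5 ± 159.6, 878 ± 168 and 1482 ± 60.5 FPKM, with Globulin 1 on 1B next. In WT30 TraesCS1A02G265800 was first at 369 FPKM and TraesCS1D02G266000 second at 341, followed by Globulin 1 on 1D at 258. The third place was held by TraesCS1D02G266000 in HP30 at 388 FPKM, by Wali3 in HP20 at 144 and by TraesCS1D02G028100 of the wounding class in WT20 at 226. Without HP20 replicate 3 the HP20 mean of TraesCS1D02G266000, 156.5 FPKM, lay above that of Wali3, 147 FPKM.

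**Figure D3:**
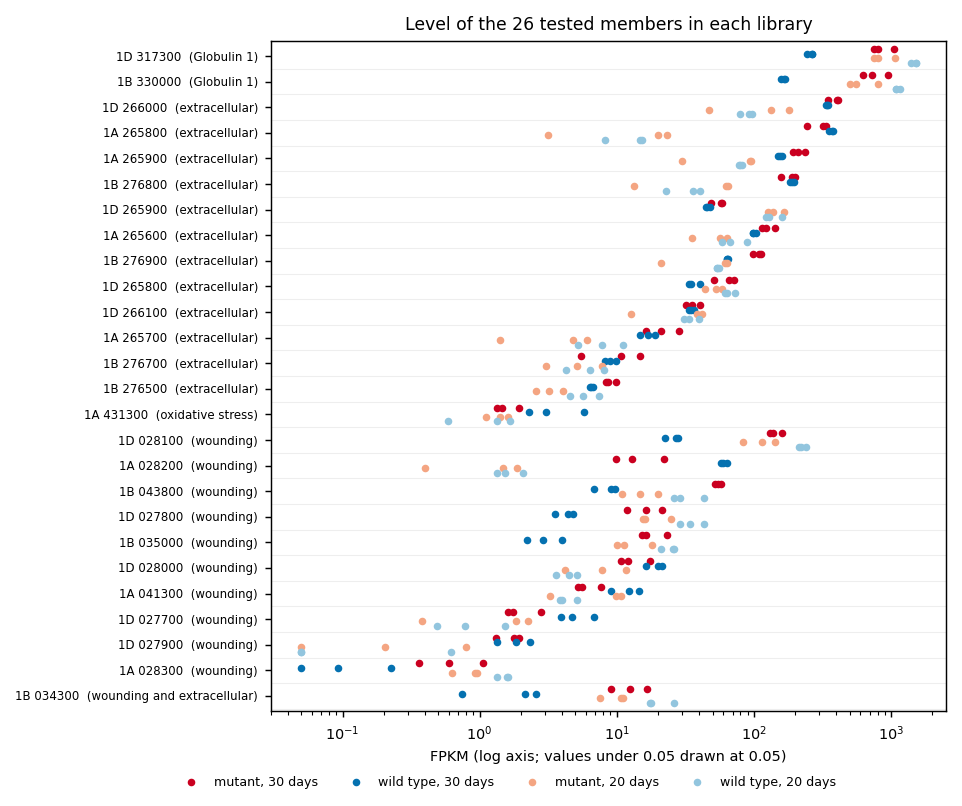
FPKM of the 26 tested members in each of the 12 libraries (x axis, log scale, with values under 0.05 drawn at 0.05), one row per gene with HP30, WT30, HP20 and WT20 in separate colours. Values run from 0 to above 1000 FPKM, and in several wounding genes the 3 WT30 points lie left of the points of the other groups.

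Fold changes below come from edgeR's quasi-likelihood test on the deposited read counts over 5723 genes, with Benjamini-Hochberg adjusted p-values called under 0.05. Their scaling factors hold the median of all genes near 0, and ratios of the printed FPKM therefore differ from them. With scaling by library totals alone the median of all genes moved to -0.51 between HP30 and WT30 and to 0.32 between HP20 and WT20. With FPKM totals set equal it moved to -1.14 and 0.69.

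Between HP30 and WT30, 14 of 26 members were higher and 1 was lower, where 13.6% of all tested genes were higher and 9.3% lower. The median log2 fold change of the members was 0.82, against -0.03 over all tested genes. With library totals alone the split was 10 higher and 2 lower, with equal FPKM totals 8 higher and 5 lower, and the members' median lay 0.86 to 0.87 above that of all genes under each of these scalings. In 19 of 26 members the FPKM of the 3 HP30 and the 3 WT30 libraries did not overlap, as in 63.2% of all tested genes. By class, 6 of 12 extracellular genes and 5 of 10 wounding genes rose, along with both Globulin 1 genes and the gene with both terms.

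Genes with the wounding term gave the largest differences at 30 days. TraesCS1D02G028100 (1D, 11131789 to 11132043), the most abundant of them, had 137, 161 and 132 FPKM in HP30 and 22.4, 28.04 and 27.3 in WT30. All 3 mutant libraries lay far above the wild-type ones (log2 fold change 2.94, SE 0.21, adjusted p = 7.06e-07). TraesCS1B02G043800 (1B, 23839433 to 23840104) had 55.03, 57.7 and 52.2 FPKM in HP30 and 6.78, 9.12 and 9.77 in WT30, again without overlap (log2 fold change 3.15, SE 0.22, adjusted p = 6.65e-07). TraesCS1B02G035000 (1B, 16658285 to 16658539) was lower in level, with 15.3, 23.1 and 16.4 FPKM in HP30 and 4.02, 2.88 and 2.20 in WT30 (log2 fold change 3.04, SE 0.32, adjusted p = 1.54e-05). TraesCS1D02G027800, which lies in the same 1D cluster as TraesCS1D02G028100, had 11.9, 16.3 and 21.3 FPKM in HP30 and 4.78, 3.56 and 4.45 in WT30 (log2 fold change 2.42, SE 0.28, adjusted p = 3.51e-05). In both of these the 3 mutant libraries lay above the 3 wild-type ones. The fifth, TraesCS1A02G028300 on 1A, was near the floor in wild type, with 0.360, 0.596 and 1.06 FPKM in HP30 and 0, 0.227 and 0.0925 in WT30 (log2 fold change 2.88, SE 0.76, adjusted p = 0.0149). TraesCS1B02G034300 on 1B, the gene with both terms, had 12.6, 16.8 and 9.13 FPKM in HP30 and 0.749, 2.57 and 2.14 in WT30 (log2 fold change 3.27, SE 0.38, adjusted p = 3.00e-05). These 6 calls held under all alternatives tried except that of TraesCS1A02G028300, whose adjusted p was 0.0625 with no filter, 0.0643 with only the groups compared and 0.06 without HP30 replicate 3. The endosperm markers given above, higher in HP30 than in WT30, moved with them. Their part in these differences was not tested.

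A single member was lower in the mutant at 30 days. TraesCS1A02G028200 (1A, 13281440 to 13281658), of the wounding class and the neighbour of TraesCS1A02G028300 in a cluster of 3, had 22.1, 9.91 and 13.02 FPKM in HP30 and 57.2, 59.8 and 63.4 in WT30 (log2 fold change -1.53, SE 0.30, adjusted p = 0.00242). The groups did not overlap, and the call held under every alternative tried. The other 4 tested wounding genes lay at log2 fold changes of -0.82 to 0.34 and did not pass. Among them TraesCS1A02G041300 had 6.18 ± 1.34 FPKM in HP30 and 11.9 ± 2.68 in WT30 (log2 fold change -0.48, SE 0.33, adjusted p = 0.338).

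Extracellular genes lay closer to 0 at 30 days. TraesCS1D02G265800, Wali5, had 71.8, 65.4 and 51.1 FPKM in HP30 and 34.7, 40.3 and 33.8 in WT30 (log2 fold change 1.26, SE 0.12, adjusted p = 7.28e-06). TraesCS1B02G276900, Wali6, had 113, 109 and 98.5 FPKM in HP30 and 64.1, 64.4 and 63.7 in WT30 (log2 fold change 1.21, SE 0.26, adjusted p = 0.00421), and TraesCS1D02G265900, Wali3, had 58.3, 57.5 and 48.4 FPKM in HP30 and 48.01, 45.9 and 45.1 in WT30 (log2 fold change 0.71, SE 0.12, adjusted p = 0.000598). In each Wali gene the mutant libraries lay above the wild-type ones. TraesCS1A02G265600, TraesCS1A02G265900 and TraesCS1B02G276500 were also called higher, at log2 fold changes of 0.81, 0.92 and 0.93. The call of TraesCS1A02G265900 was lost without any 1 of HP30 replicates 1 and 2 and the 3 WT30 libraries, at log2 fold changes of 0.85 to 0.96 against 0.92 with all of them, and also with library totals alone (0.44), with equal FPKM totals (-0.18) and in both limma fits (0.44 each). The 12 tested extracellular genes lay at 0.18 to 1.26 (median 0.76), but their direction depends on scaling: with library totals alone 2 were called and the median was 0.29, and with equal FPKM totals 0 were called and the median was -0.34. Relative to all genes the 12 lay above the median under each of these scalings, with their median 0.80 above it.

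**Figure D4:**
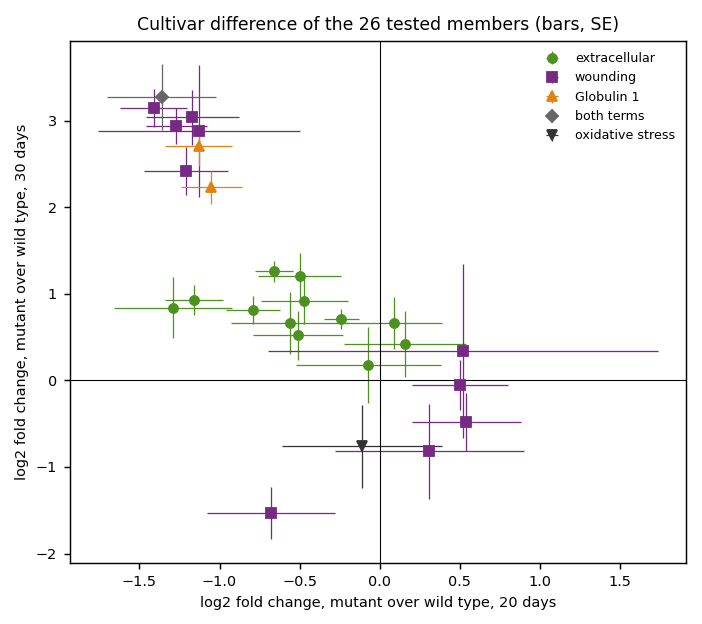
Log2 fold change of each of the 26 tested members, mutant over wild type, at 20 days (x axis) and at 30 days (y axis), with bars of 1 SE and symbols by annotation class. Globulin 1, the gene with both terms and 5 wounding genes lie at the upper left, below 0 at 20 days and above 2 at 30 days; the extracellular genes lie between 0.18 and 1.26 on the y axis.

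Between HP20 and WT20, 8 of 26 members were lower and 0 were higher with edgeR, where 1.87% of all tested genes were lower and 0.419% higher (2.29% in either direction), and 11 of the 26 had an unadjusted p under 0.05. DESeq2 called 11 lower and 0 higher. The median over members was -0.61, against 0.01 over all tested genes, and -0.33 without HP20 replicate 3. With equal FPKM totals 4 were called higher and 4 lower. In 10 of 26 the groups did not overlap, as in 42.7% of all tested genes.

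The largest called falls were again in the wounding class. TraesCS1B02G043800 had 19.9, 14.9 and 10.9 FPKM in HP20 and 26, 29.1 and 43 in WT20 (log2 fold change -1.41, SE 0.21, adjusted p = 0.01). TraesCS1D02G028100 had 115, 83.9 and 144 FPKM in HP20 and 221, 216 and 241 in WT20 (log2 fold change -1.27, SE 0.19, adjusted p = 0.0122), and TraesCS1D02G027800 had 25.1, 15.6 and 15.97 in HP20 and 43.3, 28.8 and 34 in WT20 (log2 fold change -1.21, SE 0.26, adjusted p = 0.0369). In these 3 genes all mutant libraries lay below all wild-type ones. TraesCS1B02G035000 and TraesCS1B02G034300 lay as low, at -1.17 and -1.36, without passing (adjusted p = 0.0588 and 0.056).

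Of 12 extracellular genes 3 were lower at 20 days. TraesCS1B02G276500 had 3.23, 4.04 and 2.58 FPKM in HP20 and 4.59, 7.41 and 5.70 in WT20 (log2 fold change -1.16, SE 0.18, adjusted p = 0.0122). Wali5 had 52.9, 58.5 and 43.9 FPKM in HP20 and 61.3, 73.2 and 63.3 in WT20 (log2 fold change -0.66, SE 0.12, adjusted p = 0.0252), and TraesCS1A02G265600 had 56.4, 63.5 and 35.3 in HP20 and 66.8, 89.1 and 58.3 in WT20 (log2 fold change -0.79, SE 0.17, adjusted p = 0.0364). The groups overlapped in the last of these. With equal FPKM totals Wali5 lay at 0.03.

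Calls at 20 days turned on single libraries. Without HP20 replicate 1 only 1 member was called, and without HP20 replicate 2 only 2. Without HP20 replicate 3, the library that stood apart, 10 were lower and 1 was higher, TraesCS1A02G041300. Without WT20 replicates 1, 2 and 3 in turn the counts were 4, 2 and 6, and with HP20 and WT20 fitted alone in edgeR the count was 0, although 12 members were lower at an unadjusted p under 0.05. The log2 fold changes of the 8 called genes kept to -1.66 to -0.59 in these fits, against -1.41 to -0.66 with all libraries. Calls over all genes fell as well, to 0.192% without HP20 replicate 1, 0.227% without HP20 replicate 2, 0.21% without WT20 replicate 2 and 0.0349% with HP20 and WT20 alone, against 2.29% with all libraries. None of the 8 calls held under all alternatives, compared with 8 of 15 at 30 days.

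With age most members rose in the mutant, whereas as many rose as fell in wild type. Between HP30 and HP20, 20 of 26 members rose and 1 fell, where 29.9% of all tested genes rose and 27.9% fell (57.8% in either direction). Without HP20 replicate 3, 19 rose and 1 fell. The members' median log2 fold change was 1.18, against 0.08 over all genes. Between WT30 and WT20, 10 rose and 10 fell, where 31.8% of all tested genes rose and 31.9% fell, with a median of 0.12. The FPKM of the 2 ages did not overlap in 12 members in the mutant and in 24 in wild type, as in 65.6% and 72.4% of all tested genes. The mutant count fell to 10 higher and 1 lower with library totals alone and with equal FPKM totals, while the wild-type split was 12 and 10 with the first and 16 and 9 with the second.

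In the extracellular class the next-to-last gene of each long-arm cluster rose with age in both cultivars. TraesCS1A02G265800 (1A, 461356735 to 461357498) had 322, 338 and 246 FPKM in HP30 and 23.2, 19.9 and 3.15 in HP20 (log2 fold change 4.86, SE 0.52, adjusted p = 3.84e-06). In wild type it had 355, 373 and 379 FPKM at WT30 and 15.3, 14.7 and 8.24 at WT20 (log2 fold change 4.61, SE 0.51, adjusted p = 3.74e-06). The groups stood an order of magnitude apart in each cultivar. TraesCS1B02G276800 (1B, 484365901 to 484366783) rose by 2.53 in the mutant and 2.27 in wild type on the log2 scale. It had 199.9, 189.8 and 159 FPKM in HP30 and 62.9, 64.8 and 13.5 in HP20, and 183, 189.7 and 197 in WT30 and 36.04, 40.4 and 22.98 in WT20. TraesCS1D02G266000 (1D, 361907486 to 361908378) rose by 2.26 and 1.69, with 413, 407 and 346 FPKM in HP30 and 180.1, 133 and 47.2 in HP20, and 335, 346 and 343 in WT30 and 91.7, 97.3 and 79.7 in WT20. All 6 rises held under every alternative tried. The summed embryo markers, given above, were higher at 30 than at 20 days in both cultivars, and their part in these rises was not tested.

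Among these 3 genes, the ratio of TraesCS1A02G265800 to TraesCS1D02G266000 changed with age in both cultivars. Within a library, where scaling cancels, TraesCS1A02G265800 stood at 0.774 ± 0.0592 of the FPKM of TraesCS1D02G266000 in HP30 and at 1.08 ± 0.0230 in WT30, and at 0.115 ± 0.0432 in HP20 and 0.141 ± 0.0331 in WT20. The ratio was higher at 30 than at 20 days in both cultivars, and at 30 days it was lower in each mutant library than in each wild-type one. TraesCS1B02G276800 stood at 0.470 ± 0.0130 of TraesCS1D02G266000 in HP30 and 0.556 ± 0.0155 in WT30, and at 0.374 ± 0.103 in HP20 and 0.366 ± 0.0676 in WT20. In the mutant its change with age was not clear. HP20 replicate 2 stood at 0.488, above the HP30 mean, and the HP20 mean without replicate 3 was 0.418. As a description, log2(FPKM + 1) of the 3 genes correlated with r of 0.976 to 0.990 over the 12 libraries, which share depth and age differences.

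Several neighbours of these genes behaved otherwise. Wali3, just before the next-to-last gene of the 1D cluster, fell in both cultivars: it had 58.3, 57.5 and 48.4 FPKM in HP30 and 127, 167 and 139 in HP20 (log2 fold change -0.85, SE 0.11, adjusted p = 3.03e-05). In wild type it had 48.01, 45.9 and 45.1 FPKM in WT30 and 129.5, 160.1 and 122 in WT20 (log2 fold change -1.81, SE 0.12, adjusted p = 3.21e-08). It was the single member that fell in the mutant. Wali5 fell between WT30 and WT20 (log2 fold change -1.10, SE 0.12, adjusted p = 4.31e-06) and rose in the mutant by 0.82 on the log2 scale (adjusted p = 7.83e-05), a rise that was lost with library totals alone (0.28) and with equal FPKM totals (0.09), with which the wild-type fall was lost too (-0.05). Wali6 had 107 ± 7.49 FPKM in HP30 and 48.7 ± 24.03 in HP20 (log2 fold change 1.70, SE 0.26, adjusted p = 9.59e-05), and 64.1 ± 0.363 in WT30 and 54.5 ± 1.20 in WT20 (log2 fold change -0.01, SE 0.25, adjusted p = 0.985). The last gene of the 1D cluster, TraesCS1D02G266100, stood at 36.1 ± 4.37, 34.9 ± 1.48, 30.96 ± 15.9 and 34.9 ± 4.62 FPKM in HP30, WT30, HP20 and WT20. It was called higher in HP30 than in HP20 (log2 fold change 0.79, SE 0.28, adjusted p = 0.0274), a difference of -0.0013 with equal FPKM totals and 0.44 without HP20 replicate 3. Without HP30 replicates 1, 2 and 3 in turn its adjusted p was 0.0981, 0.0729 and 0.0502. The remaining extracellular genes of the 1A cluster rose in the mutant, TraesCS1A02G265600 by 1.85, TraesCS1A02G265700 by 2.96 and TraesCS1A02G265900 by 2.11, and so did TraesCS1B02G276500 by 2.00 and TraesCS1B02G276700 by 1.51 on 1B. Of these TraesCS1A02G265900 was also called higher in WT30 than in WT20 (log2 fold change 0.73, SE 0.27, adjusted p = 0.0301), without overlap. That call was lost without any 1 of the WT20 or WT30 libraries. TraesCS1A02G265700 did not overlap between the wild-type ages either but did not pass (log2 fold change 0.84, SE 0.36, adjusted p = 0.0544). The rise of TraesCS1B02G276700, whose ages overlapped in the mutant, was lost with library totals alone (0.95), with equal FPKM totals (0.74) and with limma on log2(FPKM + 0.1) (0.93).

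The wounding class split by direction in wild type. Of 10 tested genes 5 rose and 5 fell between WT30 and WT20, and the FPKM of the 2 ages did not overlap in any of the 10, where of all tested genes 31.8% rose, 31.9% fell and 72.4% did not overlap. TraesCS1D02G027900 reached 1 FPKM in 30-day libraries alone, and TraesCS1A02G028300 in the WT20 libraries and HP30 replicate 3 alone. The filter for testing thus favoured their directions in wild type, and these counts include them. TraesCS1D02G028100 fell to 22.4, 28.04 and 27.3 FPKM in WT30, against 221, 216 and 241 in WT20 (log2 fold change -3.36, SE 0.21, adjusted p = 2.70e-08), and had 137, 161 and 132 in HP30 and 115, 83.9 and 144 in HP20 (log2 fold change 0.85, SE 0.19, adjusted p = 0.00213). The mutant ages overlapped, and the mutant rise was lost with library totals alone (0.33). TraesCS1A02G028300, TraesCS1D02G027800, TraesCS1B02G035000 and TraesCS1B02G043800 also fell in wild type, at log2 fold changes of -3.80, -3.29, -3.22 and -2.17, and so did the gene with both terms, TraesCS1B02G034300, at -3.71. Each of these, described above, was higher in HP30 than in WT30. Of these TraesCS1B02G043800 rose without overlap in the mutant, with 55.03, 57.7 and 52.2 FPKM in HP30 and 19.9, 14.9 and 10.9 in HP20 (log2 fold change 2.40, SE 0.21, adjusted p = 7.90e-07). The summed endosperm markers stood at 5971 FPKM in WT30 and 45820 in WT20, and at 32800 in HP30 and 30080 in HP20, and their part was not tested.

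The 5 wounding genes that rose in wild type were led by TraesCS1A02G028200. It had 57.2, 59.8 and 63.4 FPKM in WT30 and 1.54, 2.09 and 1.35 in WT20 (log2 fold change 4.91, SE 0.37, adjusted p = 1.02e-07), and 22.1, 9.91 and 13.02 in HP30 and 1.48, 1.86 and 0.401 in HP20 (log2 fold change 4.06, SE 0.37, adjusted p = 9.23e-07). TraesCS1D02G028000 rose as well, with 19.3 ± 2.56 FPKM in WT30 and 4.42 ± 0.754 in WT20 (log2 fold change 1.87, SE 0.31, adjusted p = 0.000124), as did TraesCS1D02G027700 (2.17), TraesCS1A02G041300 (1.22) and TraesCS1D02G027900 (2.93). TraesCS1D02G027900 had 1.83, 2.31 and 1.35 FPKM in WT30 and 0, 0.615 and 0 in WT20, so it is close to the lower limit of detection at 20 days. Its call (adjusted p = 0.0411) was lost with no filter, with the replicate number as a block and in 7 of 12 fits that left out a library.

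Direction went with gene length among the short members, an observation made after the values were seen and given with no test. The bounds of the span groups were set from the short genes called higher or lower in wild type, so they were not chosen apart from direction. All 3 members with a span of 255 bp, TraesCS1D02G028100, TraesCS1D02G027800 and TraesCS1B02G035000, were tested, and all 3 fell in wild type and were higher in HP30 than in WT30. Of the 16 members with spans of 216 to 219 bp 3 were tested, TraesCS1D02G028000, TraesCS1D02G027700 and TraesCS1A02G028200, and all 3 rose in wild type. The 7 members of 198 bp and 19 of the 20 members of 225 to 252 bp had no read. In the 1D cluster between 10955802 and 11206537 the 4 short tested genes alternated in order along the chromosome, with TraesCS1D02G027700 and TraesCS1D02G028000 rising and TraesCS1D02G027800 and TraesCS1D02G028100 falling in wild type. All 4 lay on the minus strand.

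**Figure D5:**
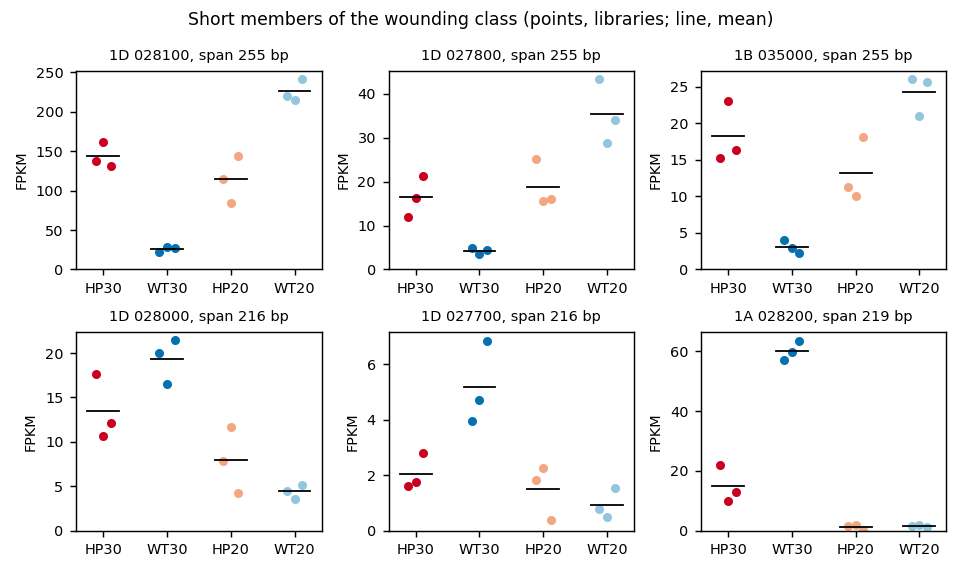
FPKM (y axis, from 0) of 6 short wounding genes in HP30, WT30, HP20 and WT20 (x axis), with a point per library and a line at the mean. In the upper row, the 3 genes of 255 bp, WT30 is the lowest group (25.9 FPKM in the first gene, against 144 in HP30), and in the lower row, the 3 of 216 or 219 bp, WT30 is the highest.

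Reads of near-identical copies may be shared. TraesCS1B02G035000 and TraesCS1D02G028100 have the same span and moved together, with TraesCS1B02G035000 at 0.126 ± 0.0161 of the FPKM of TraesCS1D02G028100 in HP30 and 0.121 ± 0.0520 in WT30, and at 0.115 ± 0.0146 in HP20 and 0.107 ± 0.0103 in WT20. Whether the lower value holds reads of the other gene was not tested, and the same limit applies to neighbouring members of a cluster. The ratio of TraesCS1B02G043800 to TraesCS1D02G028100 was not constant, at 0.385 ± 0.0236 in HP30, 0.329 ± 0.0277 in WT30, 0.142 ± 0.0575 in HP20 and 0.144 ± 0.0311 in WT20. As a description over 12 libraries, pairs of wounding genes correlated with r from -0.89 to 0.98 (45 pairs, median -0.28), and pairs of extracellular genes from -0.94 to 0.99 (66 pairs, median 0.72).

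The difference between the cultivars changed with age. The interaction, the difference at 30 days minus that at 20 days, was called higher in 15 of 26 members and lower in 0, where 13.1% of all tested genes were higher and 10.9% lower, and the members' median was 1.49. It was largest in TraesCS1B02G034300 (log2 fold change 4.63, SE 0.50, adjusted p = 2.07e-05), TraesCS1B02G043800 (log2 fold change 4.57, SE 0.30, adjusted p = 6.63e-07) and TraesCS1D02G028100 (log2 fold change 4.21, SE 0.28, adjusted p = 7.37e-07). By class it was called in 7 of 12 extracellular and 5 of 10 wounding genes. With library totals alone 11 members were higher and 3 lower, and with equal FPKM totals 8 higher and 9 lower, where the median of all genes itself moved to -0.80 and -1.81. Of the extracellular genes 3 were then higher and 0 lower with the first and 0 higher and 4 lower with the second, and of the wounding genes 5 were higher and 3 lower, and 5 higher and 4 lower. The next-to-last genes of the long-arm clusters lay at 0.25, 0.26 and 0.57 and did not pass.

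Globulin 1 on 1D (TraesCS1D02G317300) had 869.5 ± 159.6 FPKM in HP30 and 258 ± 12.8 in WT30 (log2 fold change 2.23, SE 0.19, adjusted p = 2.71e-06), and Globulin 1 on 1B (TraesCS1B02G330000) had 773 ± 170.4 in HP30 and 164 ± 6.13 in WT30 (log2 fold change 2.71, SE 0.23, adjusted p = 1.82e-06). At 20 days both were lower in the mutant, at log2 fold changes of -1.05 and -1.13. The 3 tested genes outside the members with the pattern most like that of Globulin 1 on 1D were TraesCS1A02G317500, TraesCS1D02G317301 and TraesCS1B02G084300, with Pearson r of 0.995, 0.992 and 0.991 for log2(FPKM + 1) over 12 libraries.

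The 1 tested gene with the oxidative stress term, TraesCS1A02G431300 on 1A, was low, at 1.57 ± 0.310 FPKM in HP30, 3.70 ± 1.81 in WT30, 1.38 ± 0.251 in HP20 and 1.19 ± 0.548 in WT20. It was higher in WT30 than in WT20 (log2 fold change 1.37, SE 0.49, adjusted p = 0.0258) and did not pass in either cultivar comparison. The second gene with that term, on 1B, had no read.

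Genes of the proteases themselves were set beside the inhibitors. Of 27 tested genes with serine-type endopeptidase activity, the activity that the inhibitors block, 5 were higher and 8 lower in HP30 than in WT30, and 0 higher and 1 lower in HP20 than in WT20. Of all tested genes 13.6% were higher and 9.3% lower at 30 days, and 0.419% and 1.87% at 20 days. At 30 days 5 of 27 higher is near the share of all genes, and 8 of 27 lower is above it. The median log2 fold changes of the 27 were 0.14 and -0.04. The gene with the largest rise at 30 days was TraesCS1B02G196600, a Rhomboid-like protein, an intramembrane protease, at 1.03 ± 0.242 FPKM in HP30 and 0.521 ± 0.148 in WT30 (log2 fold change 1.44, SE 0.32, adjusted p = 0.00542). The gene with the largest fall was TraesCS1B02G434100, at 0.0933 ± 0.162 FPKM in HP30 and 0.716 ± 0.144 in WT30 (log2 fold change -2.44, SE 0.83), with an adjusted p just under the threshold. At 20 days the gene that fell was TraesCS1D02G322400, at 9.94 ± 1.35 FPKM in HP20 and 12.4 ± 0.593 in WT20 (-0.62, SE 0.13, adjusted p = 0.0364).

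Of 8 tested serine-type carboxypeptidases, which trim amino acids from the end of a protein, 4 were higher and 0 lower in HP30 than in WT30, and 0 higher and 1 lower in HP20 than in WT20. The largest rise was that of TraesCS1B02G104500, at 1.06 ± 0.233 FPKM in HP30 and 0.180 ± 0.179 in WT30 (2.99, SE 0.67, adjusted p = 0.00574). At 20 days TraesCS1D02G087600 had 20.0 ± 1.73 FPKM in HP20 and 25.9 ± 2.06 in WT20 (-0.68, SE 0.15, adjusted p = 0.0411). Of 5 tested inhibitors of cysteine proteases 2 were higher in HP30 than in WT30 and 0 passed at 20 days. The shares of all tested genes given above stand beside these counts too. The larger rise was that of TraesCS1B02G322100, a cysteine proteinase inhibitor, at 23.1 ± 5.55 FPKM in HP30 and 18.8 ± 1.36 in WT30 (0.77, SE 0.19, adjusted p = 0.0116).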

How the data were processed

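The authors deposited a single table of 25270 lines, the last of them incomplete and left out, with whole-number read counts and FPKM per gene and library, per the file headers. The deposited FPKM values hold 0.0001 where the count is 0, taken here as 0. The submitters' processing notes name cutadapt 1.9, an adapter trimmer, and FastQC; the sources used here do not name the aligner, the counter or the build. RNA was extracted with Trizol and libraries made with an Illumina TruSeq kit, per the labels' protocols.

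Members were read from the table's gene ontology column, and classes from a further term on the same row. Names are those of the table: 0 member identifiers matched the reference table. The members, classes, lists, tests and alternatives were chosen with earlier results of these data known. Library totals were recovered from counts and FPKM of 43 non-coding genes with at least 100 counts. The 5723 genes (26 members) that reached 1 FPKM in 3 or more of the 12 libraries were tested on their counts by quasi-likelihood in edgeR 4.0.16 (R 4.3.3), TMM factors on the recovered totals, all 4 groups in a single fit, Benjamini-Hochberg adjustment over all 5723 genes and calls under 0.05. The SE is the log2 fold change divided by the square root of F. The common biological coefficient of variation was 21.2%. Alternatives were other scalings, filters of low values, DESeq2 1.42.0, limma 3.58.1 on log2(FPKM + 1) and log2(FPKM + 0.1), the replicate number as a block, only the groups compared, and each library left out. The fit was tested on simulated data. Named members had a group mean of at least 5 FPKM or were among the 3 largest called rises or falls of a comparison.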

Additional observations from a re-analysis of the deposited data

Results flagged for a closer look

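In 15 members the difference between mutant and wild type at 30 days differed from that at 20 days (edgeR's quasi-likelihood test of the interaction, Benjamini-Hochberg adjusted p under 0.05), and in all 15 the change was upward. With library totals alone 11 members were called higher and 3 lower (3 and 0 of the extracellular class), and with equal FPKM totals 8 higher and 9 lower (0 and 4 of the extracellular class). In the wounding class the interaction on the log2 scale was 4.57 for TraesCS1B02G043800, 4.21 for TraesCS1D02G028100, 4.21 for TraesCS1B02G035000, 4.01 for TraesCS1A02G028300 and 3.64 for TraesCS1D02G027800. It was 4.63 for TraesCS1B02G034300, which carries the wounding and extracellular terms. For Globulin 1 it was 3.84 on 1B (TraesCS1B02G330000) and 3.27 on 1D (TraesCS1D02G317300). In the extracellular class it was 2.13 for TraesCS1A02G265700, 2.09 for TraesCS1B02G276500, 1.92 for Wali5 (TraesCS1D02G265800), 1.71 for Wali6 (TraesCS1B02G276900), 1.60 for TraesCS1A02G265600, 1.38 for TraesCS1A02G265900 and 0.95 for Wali3 (TraesCS1D02G265900). Of all tested genes 13.1% were called in this direction.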

How the results depend on the processing

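Between HP30 and HP20 the number of members called was 21, and it was 11 with library totals alone, 11 with equal FPKM totals and 13 with limma on log2(FPKM + 0.1). Between HP20 and WT20 it was 8, and 0 with only the groups compared. With each library left out in turn the counts ranged from 1 to 11 between HP20 and WT20, from 14 to 18 between HP30 and WT30, from 16 to 20 between HP30 and HP20, from 17 to 21 between WT30 and WT20 and from 15 to 17 for the interaction. Of 78 calls of named members 42 held under all alternatives.

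With equal FPKM totals, which move the median of all genes, some log2 fold changes turned. Between HP30 and WT30 TraesCS1A02G265600 stood at -0.29, TraesCS1A02G265900 at -0.18, TraesCS1B02G276500 at -0.17 and TraesCS1D02G265900 at -0.39. Between HP20 and WT20 TraesCS1D02G265800 stood at 0.03 and TraesCS1D02G265900 at 0.45. Between WT30 and WT20 TraesCS1B02G276500 stood at 0.96, TraesCS1B02G276900 at 1.05 and TraesCS1D02G266100 at 0.82. For the interaction TraesCS1A02G265600 stood at -0.22, TraesCS1A02G265800 at -1.62, TraesCS1A02G265900 at -0.47, TraesCS1B02G276800 at -1.61, TraesCS1B02G276900 at -0.14, TraesCS1D02G265900 at -0.84 and TraesCS1D02G266000 at -1.27. Between HP30 and HP20 TraesCS1D02G266100 stood at -0.0013 and TraesCS1D02G317300 at -0.18, and TraesCS1D02G317300 also turned with library totals alone, with limma on log2(FPKM + 1) and with limma on log2(FPKM + 0.1), each at -0.01. The cause was not tested beyond the scaling itself.

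The labels number the replicates 1 to 3 in each group. Deviations of libraries with the same number correlated with r from -0.0948 to 0.241 over 12 pairs, so the numbers were not taken as pairs. With the replicate number as a block, 5 members were called between HP20 and WT20, against 8 without it; in the other comparisons the block moved no count by over 1.5 times. Library depth leaves 3 counts, 0.0408 to 0.0506 RPM, as the lower limit of a gene with no read.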
